A study of Macaca mulatta with 35 samples.

Results

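The transcriptomes of cumulus and mural granulosa cells from antral follicles of rhesus monkeys were compared in 23 of the 35 libraries of the study, taken by their cell type label. The cumulus libraries numbered 3 from small, 4 from medium and 4 from large follicles, and the granulosa libraries 4 from each size. The remaining 12 libraries were of oocytes, 4 per size, and served only as a reference level. All tissue came from adult females whose ovaries were recovered at necropsy, with no treatment, and the cells were taken from single follicles. The labels do not give follicle diameters or say which animal or follicle a library came from. Each title carries a library number from 1 to 4, whose meaning is not given. Since nothing says that libraries of a group came from separate animals, p-values cover only how far these libraries spread, which can be technical. RNA was extracted with PicoPure columns and amplified with the Ovation system before sequencing. Each library held between 22067108 and 33772578 estimated counts in the cumulus and granulosa cells.

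Granulosa cells surround the oocyte before the follicle has an antrum, and they separate as this fluid-filled space forms. Mural granulosa cells stay along the follicle wall, where they respond to follicle-stimulating hormone and convert androgens from the theca into estradiol. Cumulus cells stay around the oocyte, are joined to it by gap junctions, and answer to the growth factors it secretes. Because cumulus cells touch the oocyte through fine projections that cross the zona pellucida, a cumulus library can also hold RNA of the oocyte.

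Expression was given per transcript. None of the 49537 transcript IDs matched the tables of gene names used here (0 matches in either table), so transcripts are described by ID, length and level, and the cell type labels were not checked against marker genes. Steroid synthesis, gonadotropin receptors, cumulus expansion and the other gene lists drawn up for this tissue were not analysed here for the same reason.

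Cumulus cells had 3261 transcripts at a higher level and 3324 at a lower level than granulosa cells when the 3 follicle sizes were averaged, of 34521 tested (edgeR quasi-likelihood test, Benjamini-Hochberg adjusted p under 0.05). The share called was 19.1% in either direction, with 9.45% higher and 9.63% lower. The transcripts higher in cumulus cells had a median log2 difference of 1.26, with an interquartile range of 0.99 to 1.57. Those lower in cumulus cells had a median of -1.08, with an interquartile range of -1.79 to -0.78. The balance of directions rested on the scaling and the tool: 2922 were higher and 4025 lower with RLE factors, 4265 and 5342 with DESeq2, and 5270 and 3867 with limma. These are bulk libraries, in which fewer cells of a type and less RNA per cell cannot be told apart.

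The number of calls rested on how libraries were combined. It was 4259 without cumulus small 2. Leaving out the 6 libraries that held over 2% of the oocyte level, described below, left cumulus small 3 as the only small cumulus library. The far fewer calls of that fit are therefore not counted here. Its median SE of the mean contrast was 0.736 over 37399 transcripts tested, against 0.486 over 34521 with all libraries. Whether this wider error gives the fewer calls was not tested. Without the libraries numbered 4 and cumulus small 3 the number of calls was 22, with a median SE of 0.604. With counts summed to 1 value per cell type and library number (4 against 4), 0 transcripts passed in edgeR, where the smallest adjusted p was 0.0865 and 8298 transcripts were under 0.05 before adjustment. The last 2 of these settings were chosen after seeing the data. Without the 3 granulosa libraries numbered 1, also chosen after seeing the data, 9297 transcripts were called.

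Complete separation of the libraries was rare. The lowest cumulus library exceeded the highest granulosa library in 39 transcripts (0.113% of those tested), and the reverse held in 22 (0.0637%). Of these, 17 in each direction were called and reached a mean of 10 CPM (counts scaled to a common library total) in the higher cell type. The 2 with the widest gap in each direction are described next, with levels in CPM scaled by TMM factors over all 35 libraries.

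ENSMMUT00000069743.2, 1535 bases long, ranged from 11.2 to 23.1 CPM in the 11 cumulus libraries, with a median of 18. In the 12 granulosa libraries it ranged from 0.628 to 7.90 CPM, with a median of 2.0. The groups did not overlap, and the highest granulosa value belonged to granulosa medium 3. Between the cell types the log2 difference of 2.74 had an SE of 0.34 (edgeR, adjusted p = 0.00149). By size, the fitted log2 difference was 3.58 in small, 2.41 in medium and 2.24 in large follicles, and the test for a difference over sizes did not pass (edgeR, adjusted p = 1). In oocytes it ranged from 0.117 to 6.95 CPM with a median of 1.2, so that every oocyte library also lay below every cumulus library.

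ENSMMUT00000016946.4, 1688 bases long, was a small but even difference. It ranged from 11.2 to 14.8 CPM in cumulus cells (median 12.6) and from 4.36 to 8.74 CPM in granulosa cells (median 7.39). Its log2 difference of 0.91 had an SE of 0.14 (edgeR, adjusted p = 0.00281). Oocytes had between 0 and 7.01 CPM, with a median of 3.05, below all cumulus libraries.

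ENSMMUT00000110412.1, only 346 bases long, was an abundant transcript lower in cumulus cells. It ranged from 571 to 1231 CPM in cumulus cells (median 831) and from 1582 to 3944 CPM in granulosa cells (median 2359). Its log2 difference of -1.50 had an SE of 0.20 (edgeR, adjusted p = 0.00196), and fitted values by size were -1.41 in small, -1.47 in medium and -1.61 in large follicles. Its estimated counts were whole numbers in every library, so none of its reads was divided with another transcript, unlike the other 4 transcripts named here. Oocytes reached from 328 to 1575 CPM with a median of 492, a range that overlaps the cumulus libraries but not the granulosa libraries.

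ENSMMUT00000003339.4, 1641 bases long, ranged from 6.08 to 16.6 CPM in cumulus cells (median 13.1) and from 18.9 to 42.8 CPM in granulosa cells (median 25.8). Its log2 difference of -1.16 had an SE of 0.19 (edgeR, adjusted p = 0.00334). By size it was -1.11, -1.25 and -1.12 in small, medium and large follicles. The lowest cumulus value, in cumulus small 2, was below the other 10, which began at 9.65 CPM. In oocytes the level ranged from 0.324 to 6.67 CPM, with a median of 3.86.

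**Figure D1:**
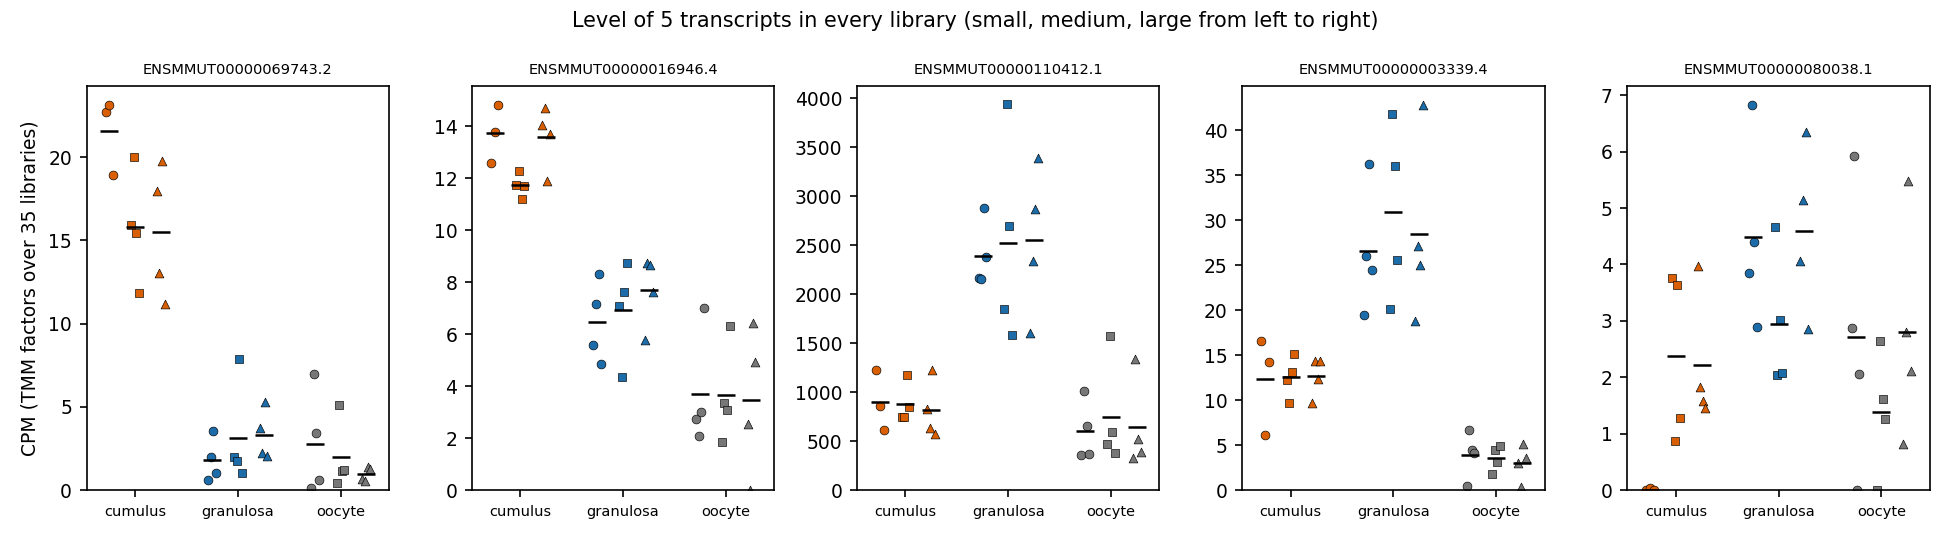
Level in CPM (TMM factors over 35 libraries) of the 5 named transcripts in every library, with cumulus, granulosa and oocyte libraries along the x axis, follicle sizes as circles (small), squares (medium) and triangles (large), and bars at group means. In the first 4 transcripts no cumulus library overlaps a granulosa library, and in the last the 3 small cumulus libraries lie at 0 to 0.0297 CPM.

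The transcripts called in the mean contrast differed in level by direction. Among transcripts with a mean under 1 CPM, 4.38% were called higher and 2.90% lower in cumulus cells, and between 1 and 10 CPM the shares were 13.4% and 7.80%. Between 10 and 100 CPM the order turned, with 8.33% higher and 23.8% lower, and above 100 CPM it was 6.58% and 25%. The same turn was present with RLE scaling, which gave 4.89% higher and 33.1% lower above 100 CPM, and 12.2% and 9.58% between 1 and 10 CPM. With both scalings the abundant transcripts that differed were mostly lower in cumulus cells, and those between 1 and 10 CPM mostly higher. The median log2 difference of all tested transcripts fell with level too. It was 0.256 under 1 CPM, 0.120 between 1 and 10, -0.227 between 10 and 100 and -0.295 above 100 CPM. The turn was thus not particular to called transcripts, and scaling by 1 factor per library cannot remove it. Its cause was not tested.

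Length differed as well. The median length was 2529 bases for transcripts higher in cumulus cells, 2962 for those lower and 2523 for all tested. Under 1000 bases, 10.5% of transcripts were called higher and 4.97% lower, while between 3000 and 5000 bases 8.90% were higher and 11.9% lower. Above 5000 bases the shares were 12% and 12.2%. All tested transcripts moved with length as well. Their median log2 difference was 0.208 under 1000 bases, 0.122 from 1000 to 2000, 0.003 from 2000 to 3000, -0.039 from 3000 to 5000 and 0.008 above 5000. The cause was not tested. Whole counts, which mark a transcript that shared no reads, were held by 4.08% of transcripts higher in cumulus cells, 12.7% of those lower and 8.29% of all tested. Most calls therefore concern transcripts whose reads were divided among related transcripts, and for these a difference of the transcript and one in the division cannot be told apart.

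Cumulus libraries held more detected transcripts and spread their counts differently over the most abundant ones. Transcripts with at least 10 counts numbered 27466 ± 626 in the 11 cumulus libraries (SD) and 25483 ± 1562 in the 12 granulosa libraries (SD; permutation test, two-sided, adjusted p = 0.00108 over 6 measures). The most abundant transcript over the 35 libraries took 16.9% ± 2.78 of counts in cumulus cells and 31.0% ± 6.61 in granulosa cells (permutation test, adjusted p = 6e-05). The second took 11% ± 2.44 of cumulus counts and 3.55% ± 2.59 of granulosa counts (permutation test, adjusted p = 6e-05). In granulosa cells this second transcript moved with the library number. It lay between 4.86% and 7.47% in the 3 libraries numbered 1, and between 0.122% and 0.461% in the 3 numbered 2. The 4 most abundant transcripts together took 38.1% ± 4.57 of cumulus and 38.3% ± 4.81 of granulosa counts (permutation test, adjusted p = 0.968), and total counts did not pass the test either (permutation test, adjusted p = 0.968).

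Over the whole profile, cell type accounted for 13% of the variance between the 23 libraries, where labels permuted within follicle size gave 4.64% on average (permutation test, p = 6e-05, adjusted p = 0.00032 over 8 tests). This permutation, like those of the library measures above, treats the 23 libraries as independent. Granulosa libraries of the same number deviated together, as given below, so these p-values are too small if the number marks the independent unit. Within granulosa cells the library number accounted for 42.0% of the variance, against 27.3% for permuted numbers (permutation test, p = 8e-05, adjusted p = 0.00032). Within cumulus cells the number accounted for 30.0%, the same as the 30.0% of permuted numbers (permutation test, p = 0.478, adjusted p = 0.637). Follicle size accounted for 19.6% within cumulus (permutation test, adjusted p = 0.668) and 14.6% within granulosa cells (permutation test, adjusted p = 0.966), neither above permuted labels. Within a single size, cell type accounted for 23.9% in small, 24.8% in medium and 17.4% in large follicles. None passed (exact permutation tests, adjusted p = 0.114, 0.0762 and 0.137), and the smallest p these tests can reach before adjustment is 0.0286.

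The first principal component held 18.3% of the variance. All 11 cumulus libraries scored between 0.27 and 0.87. Of the granulosa libraries, 8 scored between -1.09 and -0.55. The 3 numbered 1 scored 0.40, 0.10 and 0.13 in small, medium and large follicles, and granulosa large 3 scored 0.15. On this axis these 4 granulosa libraries lay nearer to the cumulus libraries than to the other granulosa libraries.

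**Figure D2:**
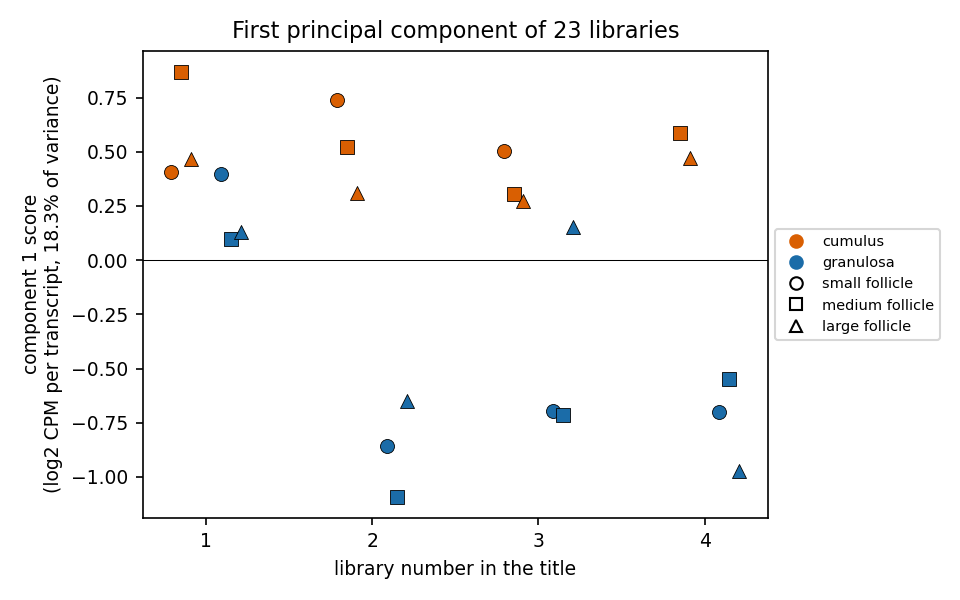
Score of each of the 23 libraries on the first principal component of log2 CPM (y axis, 18.3% of variance) by the library number of the title (x axis), with cell type by colour and follicle size by shape. Cumulus libraries lie between 0.27 and 0.87, 8 granulosa libraries between -1.09 and -0.55, and the granulosa libraries numbered 1 and granulosa large 3 between 0.10 and 0.40.

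Whether the contrast depends on follicle size was asked first by fitting it within each size. In small follicles 1 transcript was called (0.0029%), with 4838 under 0.05 before adjustment (edgeR, 14% of those tested). In medium follicles 0 were called by edgeR, with 8193 at an unadjusted p under 0.05 (23.7%), 2609 calls by limma and 5547 by DESeq2. In large follicles 0 were called by edgeR, with 2966 at an unadjusted p under 0.05 (8.59%), 0 calls by limma and 449 by DESeq2. In small follicles limma called 10 and DESeq2 1711. The order of the sizes, medium above small above large, was thus the same in DESeq2 calls and in unadjusted p-values. The count of 0 in medium follicles rose to 2056 without granulosa small 1, 2003 without granulosa medium 1, 1497 without granulosa large 4 and 917 without granulosa large 3. It was 8 without cumulus medium 3, 2 without granulosa small 2, and 1 without cumulus small 2, cumulus medium 1, granulosa small 3, granulosa medium 4 or granulosa large 1. The count in small follicles was 6 without granulosa small 1, and 3 without cumulus small 1. It was 2 without cumulus small 2, cumulus small 3, cumulus medium 1, cumulus medium 2, granulosa small 2, granulosa medium 3 or granulosa large 1. The count in large follicles was 1 without cumulus small 3 or granulosa large 1.

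A value that does not rest on a threshold is the mean squared log2 difference between the cell types over all 34521 transcripts, less the part expected from the spread between libraries. It was 0.726 in small (jackknife SE 0.572), 0.934 in medium (SE 0.509) and 0.25 in large follicles (SE 0.413). Its root is a typical log2 difference of 0.85, 0.97 and 0.50. The large-follicle value was 0.0385 without granulosa large 2, 0.0417 without granulosa large 4, 0.427 without granulosa large 1 and 0.494 without granulosa large 3. The small-follicle value was 1.24 without granulosa small 1. When sizes were permuted within cell type and library number, the difference of -0.684 between large and medium had p = 0.0519 (permutation test, two-sided, adjusted p = 0.156 over 3 tests). Large against small gave -0.476 (permutation test, p = 0.196, adjusted p = 0.294) and medium against small 0.208 (permutation test, p = 0.598, adjusted p = 0.598). The value was lowest in large follicles, but no difference between sizes passed the test, and the SEs show how wide the error is. A cosine between sizes, a measure of shared direction, was also taken with these corrected values. It was 1.06 for small and medium, 1.47 for small and large and 1.45 for medium and large follicles. These exceed the highest value a cosine can take, so the corrected values cannot be read as exact. The cause was not tested.

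**Figure D3:**
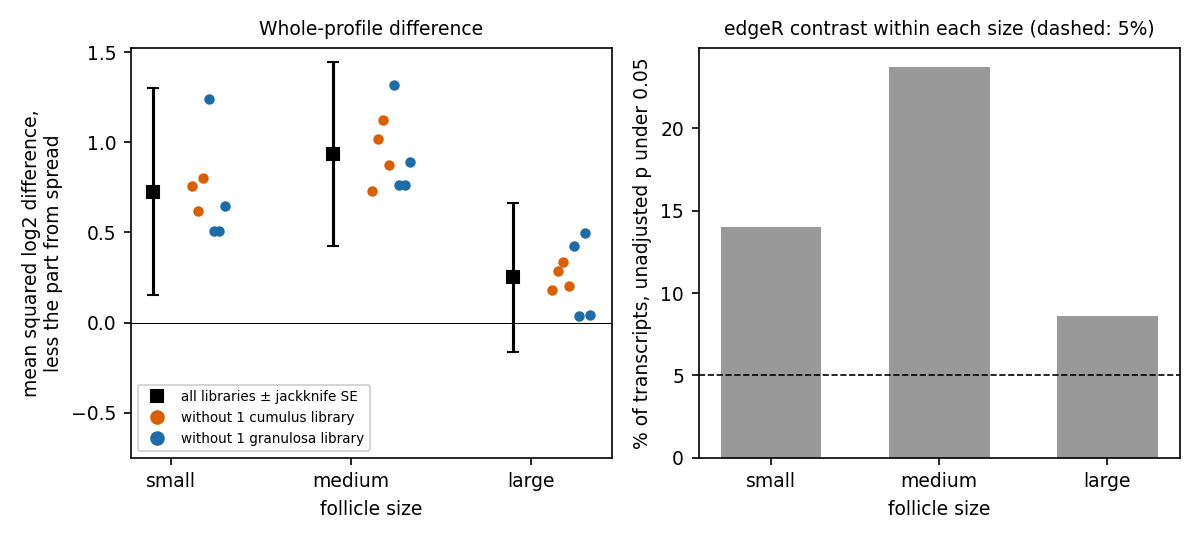
Left, mean squared log2 difference between cumulus and granulosa cells over all tested transcripts, less the part from spread (y axis), by follicle size, with jackknife SE and, as points, the values without 1 library; right, percent of transcripts at an unadjusted p under 0.05 in edgeR by size, with a dashed line at 5%. Large follicles have the lowest value on both scales, 0.25 and 8.59%, and the error bars of the 3 sizes overlap.

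Transcript by transcript, a single contrast passed the test for a difference over sizes. A test of both interaction terms called 1 of 34521 transcripts (0.0029%), with 1439 at an unadjusted p under 0.05 (4.17%), fewer than the 5% expected with no effect. The count for medium minus small was 1, with 1781 at an unadjusted p under 0.05 (5.16%), and for large minus small 1, with 1336 (3.87%). For large minus medium it was 0 by edgeR, with 1558 at an unadjusted p under 0.05 (4.51%), 0 by limma and 305 by DESeq2.

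The transcript was ENSMMUT00000080038.1, 1934 bases long (edgeR, adjusted p = 0.0313 over sizes, 0.0098 for medium minus small and 0.0344 for large minus small). In small follicles it had 0, 0.0297 and 0 CPM in the 3 cumulus libraries and 3.86, 6.82, 4.40 and 2.88 CPM in the 4 granulosa libraries. In medium follicles the cumulus libraries had 3.75, 0.873, 3.64 and 1.28 CPM, and the granulosa libraries 4.67, 2.04, 3.02 and 2.08. In large follicles the values were 3.97, 1.83, 1.58 and 1.46 CPM in cumulus and 4.07, 5.14, 6.34 and 2.85 CPM in granulosa cells. The cell types were thus apart in small follicles and overlapped in medium and large ones. The 3 small cumulus libraries held 1 count together, and the other 8 held 302 in medium and 301 in large follicles. Its counts were not whole, so its reads were divided with other transcripts, and 2 of the 12 oocyte libraries also held 0. The call over sizes was lost in 9 of 23 fits that left out a library (adjusted p from 0.0172 to 0.230). These were cumulus small 1, small 3, medium 3 and large 2, and granulosa small 1, small 3, medium 2, medium 3 and large 2. The call was also lost in 7 of 14 other settings, with an adjusted p of up to 0.941, which was reached with all 35 libraries in a single fit.

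The fitted direction of called transcripts seldom turned between sizes. Of the 3261 higher transcripts 3215 had a positive difference in all 3 sizes, and of the 3324 lower ones 3242 a negative one, while 55.8% of all tested transcripts kept 1 sign. All 3 sizes entered the choice of these transcripts, so this is a description. Median log2 differences of the higher transcripts were 1.08 in small, 1.72 in medium and 0.92 in large follicles. For transcripts lower in cumulus cells they were -1.18, -1.21 and -0.82.

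To read the difference in libraries that had no part in the choice, transcripts were called in 2 sizes and measured in the size left out. Of the transcripts called in medium and large follicles, 97.5% of 1705 higher and 96.4% of 1771 lower ones had the same direction in small follicles. The median log2 difference went from 1.37 to 0.98 and from -1.13 to -0.98. Of those called in small and medium follicles, 98.4% of 1279 higher and 98.3% of 1383 lower ones had the same direction in large follicles, with medians of 1.51 against 0.85 and -1.29 against -0.88. Over all transcripts 50.1% and 49.2% were higher in cumulus cells in the size left out. Small and large follicles together called only 3 transcripts. The 500 with the smallest p in each direction, a choice added after seeing the data, kept their direction in medium follicles in 97.6% of 451 and 98.3% of 474 that could be read there, with medians of 1.31 against 1.22 and -1.29 against -1.21. In all 3 sizes the direction was shared, and the loss in size was least in medium follicles. Granulosa libraries of the same number occur in every size and deviated together (correlation of deviations 0.101 to 0.387 over 12 pairs, against -0.263 to 0.153 over 36 pairs of different numbers), so the size left out is not independent of those used.

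The same reading with a library number left out, added after seeing the data, gave a wider range. Of the transcripts called without number 1, 82.2% of 4735 higher and 75.2% of 4265 lower ones had the same direction in number 1, with medians going from 1.41 to 0.47 and from -1.05 to -0.29. The shares were 93.4% and 96.4% for number 2, 89.6% and 85.6% for number 3, and 93.6% and 92.6% for number 4. Over all transcripts, between 49.6% (number 3) and 54.5% (number 2) were higher in cumulus cells in the number left out.

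The 500 transcripts with the smallest p in each direction gave higher shares, except for those higher in cumulus cells with number 2 left out. With number 1 left out, 91.4% of 499 higher and 81.0% of 495 lower transcripts that could be read kept their direction, and the medians went from 1.74 to 0.59 and from -1.41 to -0.28. With number 2 left out the shares were 92.3% and 97.3%, and the medians went from 1.43 to 1.45 and from -1.05 to -1.54. With number 3 left out they were 98.2% and 94.4%, with medians from 1.67 to 1.06 and from -1.24 to -0.93. With number 4 left out they were 96.4% and 97.4%, with medians from 1.44 to 1.60 and from -1.08 to -1.17. By either choice most transcripts kept their direction in each number, and the medians left were smallest in number 1.

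**Figure D4:**
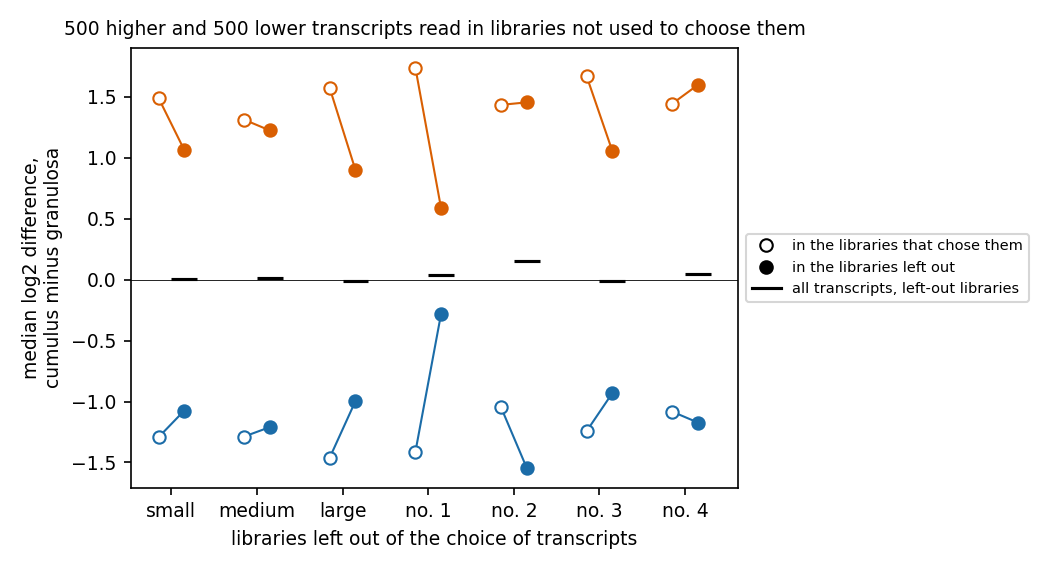
Median log2 difference between cumulus and granulosa cells (y axis) of the 500 higher and 500 lower transcripts with the smallest p, in the libraries that chose them (open) and in those left out (filled), by the follicle size or library number left out (x axis). Black bars give all transcripts in the libraries left out. With number 1 left out the medians fall to 0.59 and -0.28.

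A fit by cell type and library number, also added after seeing the data, showed how much the contrast itself varied between numbers. Number 1 gave 16 higher and 4 lower transcripts of 36310 tested (0.0551%), number 2 gave 2382 and 2119 (12.4%), number 3 gave 61 and 49 (0.303%) and number 4 gave 1462 and 920 (6.56%). These counts moved widely when a library was left out. Number 1 gave 5 without granulosa medium 1 and 9 without granulosa small 1. Number 2 gave 1510 without granulosa medium 2, 2079 without cumulus small 2, 2533 without granulosa small 2 and 2636 without cumulus medium 2. Number 3 gave 6 without cumulus medium 3, 14 without granulosa small 3, 15 without cumulus large 3, 25 without cumulus small 3, 173 without cumulus medium 1 and 1309 without granulosa large 3. It gave between 45 and 64 without any other library except granulosa small 2 (78), granulosa small 1 (125) and cumulus small 2 (138). Number 4 gave 86 without cumulus medium 4, 134 without granulosa large 4, 339 without cumulus large 4 and 622 without granulosa small 4. The counts thus give no firm order of the numbers. The share at an unadjusted p under 0.05 was 6.4%, 27.6%, 15.1% and 22.3% in the order of the numbers. The mean squared log2 difference, less the part from spread, was 0.078, 1.81, 0.678 and 1.61. Across transcripts, the log2 differences of 2 numbers correlated between 0.07 (numbers 1 and 3) and 0.45 (numbers 2 and 4), and transcripts are not independent replicates. A test over the 3 interaction terms called 67 transcripts (edgeR, 0.185%), with 4792 at an unadjusted p under 0.05 (13.2%), and in 20 of the 67 the contrast exceeded 2-fold in opposite directions in different numbers. The 67 became 30 without cumulus medium 4, 40 without cumulus small 2, 43 without granulosa small 4 and 115 without granulosa large 3. What the number stands for was not tested.

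The oocyte reference asked how far oocyte RNA in cumulus libraries could reach. A set of 584 transcripts had at least 10 CPM on average in oocytes and medians of at most 1% of that in both cumulus and granulosa cells. Its level in a library, as a percent of its mean in oocytes, serves as the library's share of oocyte level. The reference was uneven, since the oocyte libraries themselves ran from 47.6% in oocyte medium 2 to 123% in oocyte large 2. Among cumulus libraries this share reached 5.43% in large 3, 4.55% in medium 2, 4.06% in small 1 and 3.11% in small 2. It was 2.56% in granulosa medium 4 and 4.11% in granulosa large 1. The other 17 libraries lay between 0.132% and 1.04%, so the high values fell in both cell types and in all sizes. The choice of the set holds most libraries of both cell types low, so only the libraries above the rest are informative, and no test between the cell types is given.

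Most transcripts higher in cumulus cells were no higher in oocytes, with means taken here in CPM of the library total, without TMM factors. In 2798 of 3261 (85.8%) the oocyte mean was at or below the cumulus mean, so that no mixture of granulosa and oocyte RNA at these means gives the cumulus level. Of all tested transcripts 46.0% were in this class, with the cumulus mean above the granulosa mean as well. Choosing transcripts for a high cumulus level raises this share by itself, so the gap between these shares is no test. The other 463 would need an oocyte share with a median of 39.9% (interquartile range 20.9% to 68.6%). TMM factors ran from 0.987 to 1.40 in cumulus and from 0.580 to 1.10 in granulosa libraries. CPM of the library total thus puts cumulus means higher against granulosa means than the contrast does. On this scale the cumulus mean was not above the granulosa mean in only 27.8% of all tested transcripts. Needed shares with TMM factors are not given here. In 446 of them (13.7% of the higher transcripts) this was above 5.43%, the highest share in any cumulus library, and in 17 (0.521%) it was at or below it. Of all tested transcripts 18.6% were above the highest share and 7.54% within it. The needed share grows with the difference between the cell types, on which the higher transcripts were chosen. Their low share of 0.521% was thus partly set by that choice. The 17 transcripts held 0.0178% of cumulus counts, 0.0073% of granulosa counts and 0.406% of oocyte counts.

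Transcripts lower in cumulus cells were more often high in oocytes. The oocyte mean lay above both cell types in 14.2% of transcripts higher in cumulus cells, 45% of those lower and 38.9% of all tested. Choosing transcripts for a high cumulus level lowers the first share by itself. The lower transcripts were also more abundant, with medians of 6.71 CPM in cumulus and 14.3 in granulosa cells, against 4.99 and 2.14 for the higher ones. The gap between the directions is therefore no test. Among the 7 cumulus and 10 granulosa libraries with an oocyte share under 2%, the direction was the same for 3258 of 3261 transcripts higher in cumulus cells and 3323 of 3324 lower ones. These are a subset of the libraries that chose them, and 91.2% of all tested transcripts also kept theirs. The median difference of mean log2 CPM was 1.02 in all libraries and 1.07 in those 17 for the higher transcripts, and -0.87 and -0.91 for the lower ones. For the 17 transcripts within the measured share it was 0.77 and 0.57, and 16 of them kept their direction. When the expected oocyte counts were subtracted from every library before the fit, 6922 transcripts were called, 6429 of them shared with the 6585.

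**Figure D5:**
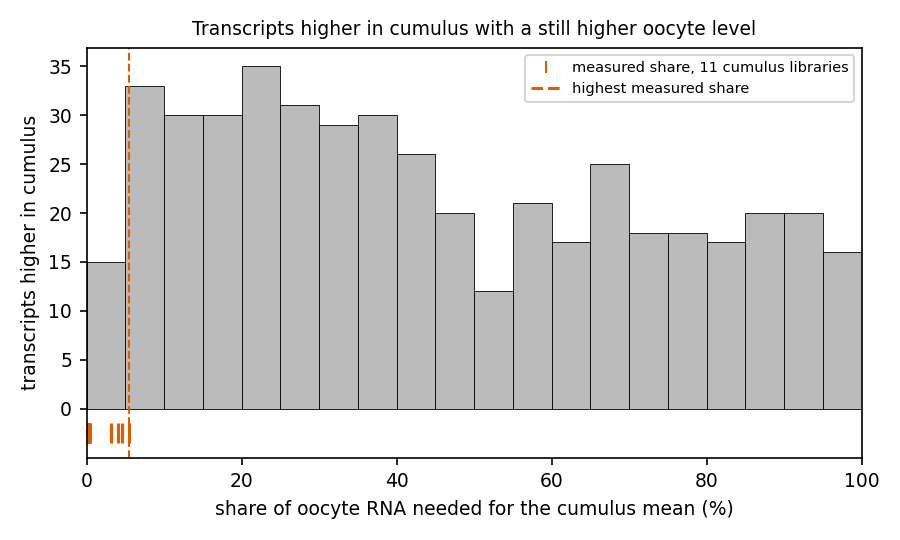
Number of transcripts higher in cumulus cells (y axis) by the share of oocyte RNA, in percent, that a mixture with granulosa RNA would need to reach the cumulus mean (x axis), for the 463 transcripts whose oocyte mean exceeds the cumulus mean. Ticks under the axis mark the shares measured in the 11 cumulus libraries and the dashed line the highest, 5.43%, which 446 of the 463 transcripts exceed. Means are in CPM of the library total, without TMM factors.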

How the data were processed

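RNA of single-follicle cell samples was sequenced in 35 libraries, and 23 were compared here. The authors deposited, per the file headers, estimated counts and TPM per transcript. The submitters' processing notes name bcl2fastq 2.19.1 and kallisto 0.44.0; no genome build or index of transcripts is named in the sources used here. The deposited TPM values are per transcript length and were not used. Estimated counts were rounded, since 5980 transcripts with whole counts in every library (tolerance 1e-06) held only 35.8% of counts and the reads of the rest were divided among transcripts. Effective length was length less 199 bases for 99.3% of transcripts.

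Counts were fitted with edgeR 4.0.16 in R 4.3.3 (quasi-likelihood test, robust, TMM factors, filter at a minimum count of 10, 6 groups of cell type and size), adjusted over all 34521 transcripts. DESeq2 1.42.0 and limma 3.58.1 were alternatives. The pipeline was tested on simulated data. Permutation tests over libraries used 100000 resamples and were two-sided, except those of shares of variance. The latter were one-sided, for a share at least as high, and within a single size went through every labeling. Log2 CPM for the profile and components used a prior count of 2.

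Named transcripts were called, did not overlap between cell types, had at least 10 CPM in the higher one, and had the widest gap in log2(CPM + 0.5), at most 2 per direction, plus the transcript called over sizes. The transcripts, lists and tests were chosen with earlier results of these data known. Deviations of cumulus and granulosa libraries of the same size showed no pairing by library number. The correlation was -0.099 to 0.121 over 11 pairs of the same number and -0.134 to 0.110 over 33 pairs of different numbers. Such weak correlations cannot decide whether libraries of a number belong together.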

Additional observations from a re-analysis of the deposited data

Results flagged for a closer look

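Of 50 groups of 4 libraries or more whose highest or lowest value was compared with the rest, 5 held a library far from the others, and chance gives about 1 in 20. ENSMMUT00000069743.2 stood at 7.90 CPM in granulosa medium 3 and between 1.02 and 1.97 CPM in the other 3 libraries of that group. ENSMMUT00000080038.1 stood at 3.97 CPM in cumulus large 1 and between 1.46 and 1.83 CPM in the other 3. The share of oocyte level was 5.43% in cumulus large 3 against 0.232% to 0.354% in the other 3 large cumulus libraries. It was 4.55% in cumulus medium 2 against 0.217% to 0.377%, and 4.11% in granulosa large 1 against 0.180% to 0.449%.

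The difference between cumulus and granulosa cells passed an interaction test for follicle size in ENSMMUT00000080038.1 (edgeR, adjusted p = 0.0313). This call was lost in 9 of 23 fits that left out a library and in 7 of 14 other settings. For the library number 67 transcripts passed an interaction test (edgeR, adjusted p under 0.05), a grouping added after seeing the data.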

How the results depend on the processing

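The 6585 calls of the mean contrast stayed within 1.5 times of that count with RLE factors, both other filters, all 35 libraries in a single fit, oocyte counts subtracted or the oocyte share as a covariate, without the 4 most abundant transcripts, with limma and DESeq2 (9607) and without the granulosa libraries numbered 1 (5958 to 9607), and were 4259 to 8305 in the fits that left out a library each. DESeq2 moved the median of all transcripts by -0.14. The count was 40 without the libraries over 2% of the oocyte level, 22 without those numbered 4 and cumulus small 3, 0 with counts summed per cell type and number, and 589 of 2894 tested with whole counts, where fewer transcripts were tested. The cause of the other changes was not tested. The 4 transcripts named for the mean contrast had the same direction in every setting in which they were tested, and all 4 calls were lost with summed counts (adjusted p = 0.0865). ENSMMUT00000016946.4 also lost its call with all 35 libraries in a single fit (adjusted p = 0.121), and it and ENSMMUT00000003339.4 without the libraries numbered 4 and cumulus small 3 (adjusted p = 0.0877 and 0.0799). Neither was called without the libraries over 2%. In the fits without a library each, their adjusted p was at most 0.00918.

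The library number as a replicate block gave 6635 calls in the mean contrast (3773 higher and 2862 lower), and 3 in small and 1260 in medium follicles. Size and number together as a replicate block gave 1098, and 0 in small follicles, for the difference over sizes, for medium minus small and for large minus small (ENSMMUT00000080038.1 over sizes, adjusted p = 0.891). With summed counts and the number as a replicate block 0 passed, with 7202 at an unadjusted p under 0.05 and a lowest adjusted p of 0.169. Of 22 libraries with a partner, 6 correlated best with their own number, so this measure showed no pairing. Weak correlations cannot decide whether the number pairs libraries. An abundant transcript described below set the libraries numbered 4 apart in all 3 cell types, together with cumulus small 3.

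Within small follicles the count of 1 became 0 with whole counts, 10 with limma, 1711 with DESeq2, 1306 without granulosa numbered 1 and 2 without number 4 and cumulus small 3 (1 to 6 without a library each). Within medium follicles the count of 0 became 1407 at a minimum count of 50, 909 with all 35 libraries, 15 with oocyte counts subtracted, 2 with whole counts, 2609 with limma, 5547 with DESeq2 and 3385 without granulosa numbered 1 (0 to 2056 without a library each). Within large follicles it became 449 with DESeq2 and 1 without granulosa numbered 1 (0 to 1 without a library each). The difference over sizes, 1 transcript, became 0 with all 35 libraries, the oocyte covariate, whole counts or without number 4 and cumulus small 3, 2 without granulosa numbered 1, and 14 with DESeq2 (0 to 2 without a library each). ENSMMUT00000080038.1 was not among the calls without granulosa numbered 1 (adjusted p = 0.0558) or with limma (0.0959), where other transcripts passed, and was not called without the libraries over 2%. It also lost its call with all 35 libraries (0.941), the oocyte covariate (0.0876) and without number 4 and cumulus small 3 (0.86). Medium minus small became 0 with all 35 libraries, whole counts or limma, 337 with DESeq2 and 2 without granulosa numbered 1 (0 to 2). Large minus medium became 305 with DESeq2 and 2 without granulosa numbered 1 (0 to 1). Large minus small became 0 with all 35 libraries, the oocyte covariate, whole counts or limma, 342 with DESeq2 and 2 without number 4 and cumulus small 3 (0 to 2).

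The difference between library numbers gave 494 calls with limma (30 to 115 without a library each). The mean squared difference in large follicles was -0.013 without number 4 and cumulus small 3. The 17 transcripts within the oocyte share became 1 with the mean cumulus library. With the small follicles left out of the choice, 98.1% of the transcripts with the smallest p had the same direction there. Counts summed per gene were not run, since transcripts were not joined to genes.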

Other observations

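Among the 12 most abundant transcripts, 1 of 1378 bases separated libraries by number in all 3 cell types. In cumulus cells it took 0.213% and 0.268% of counts in the 2 libraries numbered 4, 0.249% in cumulus small 3 and 2.01% to 2.55% in the other 8. In granulosa cells it took 0.492% to 0.767% in the 3 libraries numbered 4 and 2.64% to 7.17% in the other 9, and in oocytes 0.121% to 0.134% in 3 and 0.569% to 2.46% in 9. Cumulus small 3 thus lay within the range of the cumulus libraries numbered 4. The transcript was chosen after its values were seen, and its mean contrast did not pass the test (edgeR, log2 difference -1.67, adjusted p = 0.0523).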
